A study of Mus musculus with 3 samples.

Results

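The genes described are those of the cytosolic ribosome's proteins, taken as every gene symbol that starts with Rpl or Rps and a digit, or with Rplp, without the Rps6k kinases and symbols containing -ps. This rule, which used no measured value, gave 85 members among 23298 symbols. They comprised 43 large-subunit genes, 30 small-subunit genes and 3 stalk genes. A further 8 members were paralogs of these genes, and 1, Rps19bp1, encodes a protein that binds a ribosomal protein and is itself no part of the ribosome.

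The libraries came from C2C12 cells, a mouse myoblast line, that carried hN1∆ECD, a human NOTCH1 without its extracellular domain. The cultures were grown in 10 uM DAPT, an inhibitor of gamma-secretase, the protease that releases the active part of Notch receptors. DAPT was washed out for 1 h in 1 culture and for 6 h in another, and the control is labelled as having had no treatment. All 3 groups share the line and the transgene. The labels do not tell whether control cells were collected still in DAPT, which promoter drives the transgene or whether the line is a clone.

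Polyadenylated RNA was sequenced in 3 libraries, 1 per group, so no difference below has a replicate check, and no p-value or SD can be given. Values are FPKM, fragments per kilobase of transcript scaled to the number of mapped fragments, which is a level per length. Where 3 values follow each other, they are those of the control, then 1 h, then 6 h. Depth, estimated from the spacing of low values, was about 23300000, 20700000 and 20800000 fragments. Of 6 myoblast markers, 3 were above 1 FPKM (Des, Cdh15 and Myf5), while the defining myoblast gene Myod1 was at most 0.295, Myog at most 0.625 and Pax7 at most 0.0109 FPKM. Des had 62.2, 73.3 and 66.3, Cdh15 27.4, 41.2 and 87.0, and Myf5 11.4, 26.4 and 8.51 FPKM, and their part in the results was not tested. The 8 markers of blood, endothelial, epithelial, fat, bone and cartilage cells were at most 0.327 FPKM. In bulk RNA, fewer cells of a type and less RNA per cell cannot be told apart.

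A ribosome contains a copy of nearly every one of these proteins, bound to ribosomal RNA in a small subunit that decodes the mRNA and a large subunit that joins amino acids. Their mRNAs are among the most abundant of a growing cell. Most begin with a terminal oligopyrimidine (TOP) tract, a run of C and U at the very start through which mTOR signalling and the binding protein LARP1 control their translation and stability. In growing myoblasts, ribosome production accompanies proliferation.

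The start sites of 8 members are shown because the pyrimidine tract is the sequence that links the family. Rps2, Rps9 and Rpl41 were among the genes furthest below the control at 1 h, Rps26 and Rpl39 among those nearest to it, and Rpl35, Rpl38 and Rps25 among those that differed most between 1 h and 6 h. Each line gives 30 bases before the RefSeq start and 20 bases from it onward, 5′ to 3′, on build GRCm38.p6. Capitals mark the longest run of C or T, where it has at least 7, that touches the stretch from 10 bases before to 20 bases after the start. Where a window has no capitals, it held no such run. A marked run may lie before or after the RefSeq start, as in Rps25 and Rpl39, so it need not be a TOP tract.
Rps2: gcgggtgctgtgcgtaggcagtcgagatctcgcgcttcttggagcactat
Rps9: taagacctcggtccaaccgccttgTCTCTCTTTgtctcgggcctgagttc
Rpl41: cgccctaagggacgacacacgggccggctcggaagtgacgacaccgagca
Rps26: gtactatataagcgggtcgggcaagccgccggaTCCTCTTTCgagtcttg
Rpl39: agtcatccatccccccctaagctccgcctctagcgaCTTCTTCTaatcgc
Rpl35: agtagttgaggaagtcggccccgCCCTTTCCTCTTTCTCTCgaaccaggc
Rpl38: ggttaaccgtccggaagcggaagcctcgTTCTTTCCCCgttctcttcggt
Rps25: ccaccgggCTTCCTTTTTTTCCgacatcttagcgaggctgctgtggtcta
The windows of Rps2 (chr17:24720033-24720082), Rps9 (chr7:3704011-3704060), Rpl38 (chr11:114668550-114668599) and Rps25 (chr9:44407684-44407733) lie on the plus strand. Those of Rpl41 (chr10:128549149-128549198), Rps26 (chr10:128626487-128626536), Rpl39 (chrX:37085203-37085252) and Rpl35 (chr2:39005112-39005161) lie on the minus strand. The longest run among the 8, of 18 bases, was that of Rpl35.

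RefSeq promoter windows, from 250 bases before to 50 after a start, were held for 64 of the 85 members, and for 56 of the 76 subunit and stalk genes, which had 66 windows. A pyrimidine run of at least 7 near the start was found in 36 of these 66 windows (54.5%), beside 22.7% of 9825 windows of all genes whose mean reached 1 FPKM and 24.6% of all 32851 windows. The ETS core CCGGAAG, searched like the other strings on both strands and without regard to overlap, was in 36.4% of the ribosomal windows, in 18.8% of those of expressed genes and in 8.86% of all. The YY1 string AAGATGGC was in 10.6%, 4.79% and 2.75% in the same order. GC boxes (GGGCGG) were in 60.6%, 65.2% and 35.7%, TATAAA in 9.09%, 6.82% and 13.6%, and the E-box CACGTG in 12.1%, 10.4% and 7.15%. The string GTGGGAA, read by the Notch partner RBPJ, was in 6.06%, 5.82% and 6.38%. These matches describe letters in a window and are no evidence of binding or of a TOP tract at the mRNA's own start.

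Ribosomal protein genes made up a large part of the measured transcriptome. The members' FPKM added up to 17.5%, 16.7% and 17.7% of the summed FPKM. By mean FPKM, 24 of the 50 highest genes and 51 of the 100 highest were members. Per length, the median large-subunit gene stood at 1013, 943 and 1017 FPKM. The median small-subunit gene stood at 1335, 1259 and 1352 FPKM.

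Levels differed widely within the family. Highest of all by FPKM was Rplp1, an acidic stalk protein that helps bind elongation factors, at 4248, 3828 and 4084 FPKM. Its partner Rplp2 was at 1312, 1194 and 1289 FPKM, and Rplp0, the base of the stalk, at 1674, 1477 and 1591 FPKM. All 3 stalk genes were lowest in the 1 h library. Levels are ranked by FPKM, which for many members lies above the deposited bounds described below. By the control's bounds Rps2 (2448 to 2498), named next, stood above Rplp1 (2353 to 2430).

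Rpl41, which encodes a very short basic protein at the interface of the subunits, was the highest large-subunit gene by FPKM at 3913, 3401 and 3703. Rps2, whose protein lines the channel through which mRNA enters, led the small subunit at 3106, 2686 and 2972 FPKM. Next came Rps28, at the site where mRNA leaves, with 2828, 2611 and 2672 FPKM, and Rps12, in the head of the small subunit, with 2675, 2475 and 2731 FPKM. Rpl35, at the exit of the peptide tunnel, had 2406, 2207 and 2534 FPKM, and Rps15, also in the head, had 2430, 2251 and 2385 FPKM. By their bounds in the control, Rpl35 (2383 to 2487) stood above Rpl41 (2093 to 2166). Across 73 subunit and stalk genes above 0 in every library, transcript length and mean FPKM had a Spearman rho of -0.27. Transcript length and the control's FPKM over the midpoint of its bounds had a rho of -0.40. Length was the median over a gene's protein-coding transcripts in GENCODE vM21, which need not be the length behind the FPKM. For Rps20 it was 3706 nt, more than its whole mm9 locus (chromosome 4, 3761620 to 3762747), so both rhos are rough. These genes share libraries and are not independent.

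**Figure D1:**
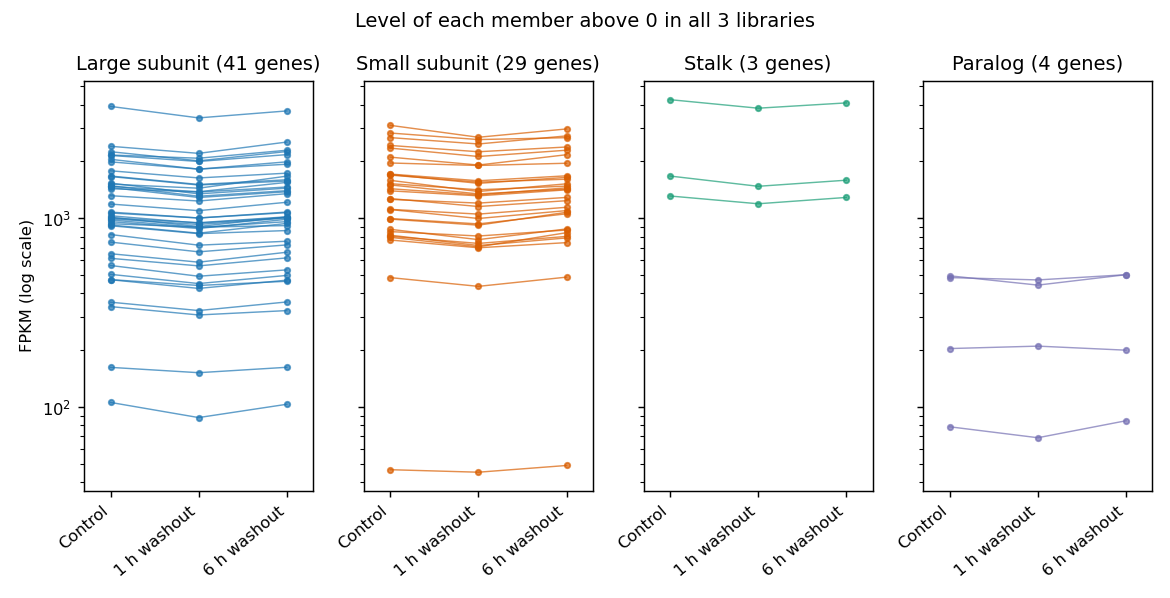
FPKM on a log axis for members above 0 in all 3 libraries, with 1 line per gene and 1 panel per class. Most lines dip at 1 h by a similar amount and differ far more between genes than between libraries, as for Rplp1 at 4248, 3828 and 4084 FPKM.

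At the low end stood Rps15a, near the mRNA channel, with 46.6, 45.2 and 49.1 FPKM. Of its pseudogene-named rows, Rps15a-ps6 had 86.8, 88.5 and 96.9 FPKM and Rps15a-ps4 44.3, 44.3 and 46.5 FPKM. Ribosomal protein genes have many near-identical processed copies, and the labels do not tell how fragments were divided between them, so the levels of single members are uncertain.

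Among the subunit genes, Rpl30, Rps27 and Rpl26 were listed at 0 in some library. Rpl30, a large-subunit gene, was at 0 in all 3. Rps27, a small-subunit gene with a zinc finger, was at 0 in the control and at 6 h and at 238 FPKM at 1 h. Rpl26, at the tunnel exit, had 0, 111 and 166 FPKM. Taken alone these rows look like large switches in Rps27 and Rpl26.

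In the deposited tables each of these 3 genes, and also Rpl34, spans nearly the same interval as a second row (at least 90% of both) that bears the name of a processed copy or relative. Gm12191, on the Rpl30 interval (chromosome 15, 34370261 to 34373031, mm9), had 2380, 2177 and 2403 FPKM. Gm9846, on the Rps27 interval (chromosome 3, 90016589 to 90017570), had 1865, 1562 and 1949 FPKM. Gm15772, on the Rpl26 interval (chromosome 11, 68715068 to 68718036), had 1254, 1061 and 1137 FPKM. In each of these pairs the second row carried most or all of the level, and where the member was above 0 the second row was lower.

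Rpl34-ps1, on the Rpl34 interval (chromosome 3, 130429749 to 130433247), had 1427, 1320 and 1509 FPKM, beside 106, 88.0 and 104 FPKM for Rpl34 itself. Summed over both rows, Rps27 and Gm9846 had 1865, 1800 and 1949 FPKM, and Rpl26 and Gm15772 had 1254, 1172 and 1302 FPKM. Rpl34 with its second row had 1533, 1408 and 1612 FPKM. With the rows summed, all 4 intervals had their lowest value at 1 h and their highest at 6 h, and none showed the switch of the single rows. The rows Gm9846 and Gm15772 have a low-data status in the files.

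**Figure D2:**
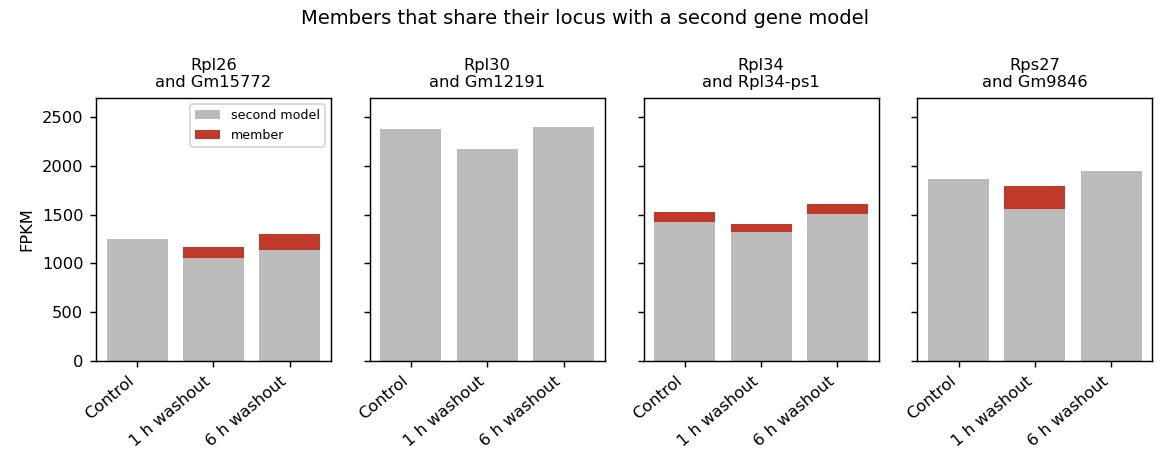
Stacked bars give FPKM in each library for 4 members (red) and for the second row on the same interval (grey), on an axis that starts at 0. The second row holds most of each bar, and the sums are lowest at 1 h, as for Rpl26 with Gm15772 at 1254, 1172 and 1302 FPKM.

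The 1 h library shows how the family stood soon after DAPT was removed. Nearly all members were slightly lower there than in the control. Of 80 members whose mean reached 1 FPKM, 77 were lower and 3 higher, where 54.5% of all 10464 genes with that mean were lower and 45.4% higher. The remaining 5, Rpl30, Rpl3l, Rpl10l, Rpl39l and Rps4y2, were below that mean. The 3 higher ones were Rps27 and Rpl26, which had passed only through libraries other than the control, and the paralog Rpl22l1.

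The median log2(FPKM + 1) difference of the 80 members was -0.13, beside -0.025 for all genes and -0.068 for 834 non-members whose mean reached 100 FPKM. Of those abundant non-members 70.1% were lower and 29.6% higher. The differences of the 73 subunit and stalk genes above 0 in all libraries lay close together, with an interquartile range of 0.055, beside 0.31 over all genes and 0.18 over the abundant non-members. Large-subunit, small-subunit and stalk medians were -0.13, -0.12 and -0.15.

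The differences were small. The smaller threshold used here was a log2(FPKM + 1) difference of 0.32. None of the 80 members was lower by as much, while 12% of all genes and 52 of the 834 abundant non-members were. None was 2-fold lower (0.831% of all genes, 20 of the abundant non-members). Higher by as much were Rps27 and Rpl26 (9.35% of all genes, 48 of the abundant non-members). Both were also past 2-fold (1.31% of all genes, 23 of the abundant non-members). No fold is given for them because the control is listed at 0.

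Each deposited value has a lower and an upper confidence bound, whose level the files do not state and which reflects counting and read assignment within a library and not variation between cultures. By these bounds 63 of 80 members were lower at 1 h with the bounds of the 2 libraries apart, beside 20.1% of all genes and 36.3% of abundant non-members. The count of 63 holds for the deposited scale and fell to between 42 and 56 when the libraries were rescaled as described below. The shares of all genes and of abundant non-members hold for the deposited scale only and are no background for the rescaled counts. Bounds apart with a higher value were found for 2, Rps27 and Rpl26 (14.9% of all genes and 15.9% of abundant non-members). The FPKM of 66 of the 85 members lay above its own upper bound in the control. Of kept genes above 1 FPKM there, 21.6% lay outside their bounds on either side. The counts above compare the positions of the bounds, and the interval of the ratio uses only their widths. An interval of the ratio built from these widths lay below 1 for 72 of 80 members, beside 27.5% of all genes and 46.0% of abundant non-members, and above 1 for 0, beside 21.0% and 18.8%.

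With the 4 second rows summed into their members, all 76 subunit and stalk genes were lower at 1 h, and the interval of the ratio lay below 1 for 72. Lowest was Rps2, at 2686 FPKM against 3106, a ratio of 0.865 (interval 0.852 to 0.878). Rpl41 followed at 3401 against 3913 FPKM, a ratio of 0.869 (0.846 to 0.893). Rps9, in the small-subunit body, had 1387 against 1588 FPKM, a ratio of 0.873. Rpl7a had 1347 against 1537 FPKM, a ratio of 0.876 (0.853 to 0.900). Rpl34 alone had a ratio of 0.831 (0.728 to 0.949), and 0.918 (0.868 to 0.972) with its second row.

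Nearest to the control at 1 h were Rps26, which touches the mRNA at its exit, at 1904 against 1962 FPKM, and Rps15a. Their ratios were 0.970 (0.937 to 1.01) and 0.970 (0.920 to 1.02). Rpl39, which lines the peptide tunnel, had 2080 against 2163 FPKM, a ratio of 0.962 (0.926 to 0.998). Rpl10, which joins the large subunit last and closes the tRNA site, had a ratio of 0.961, and Rpl37a 0.959. Rps27 with its second row had a ratio of 0.965 (0.911 to 1.02) and Rpl38 0.952 (0.892 to 1.02). The intervals of Rps26 and Rps15a include 1, as do these 2. Those of Rps2 and Rpl41 do not overlap the intervals of Rps26 and Rps15a, but these genes were picked as the ends of the ranking.

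**Figure D3:**
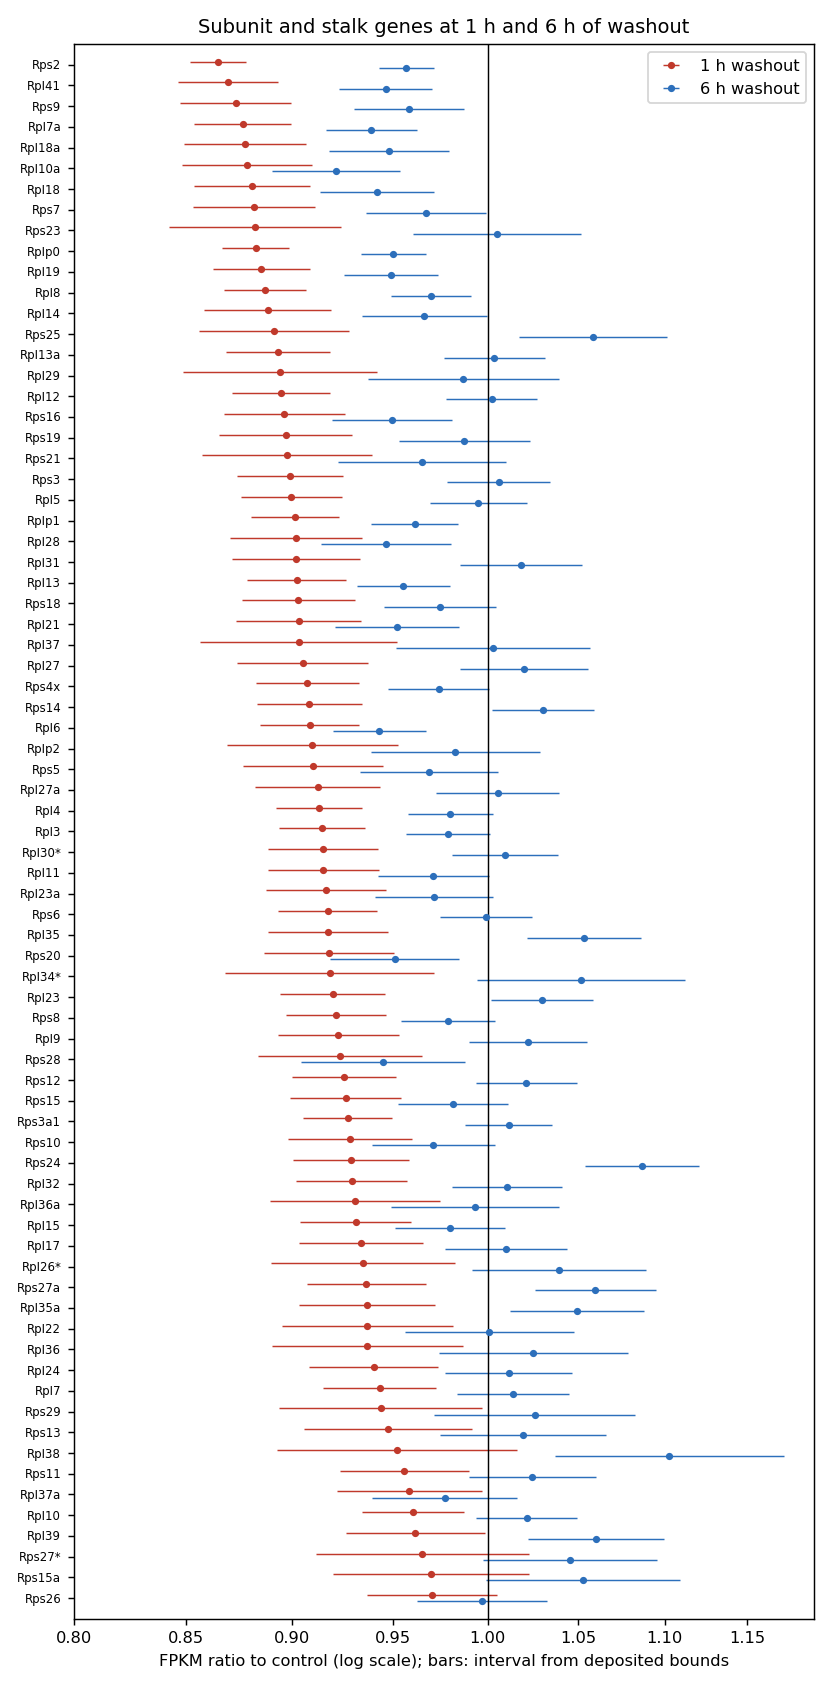
FPKM ratio to the control (log axis) for 75 of the 76 subunit and stalk genes at 1 h (red) and 6 h (blue), with bars for the interval from the widths of the deposited bounds; an asterisk marks a sum with the second row on the same interval. All 1 h points lie left of 1, from 0.865 for Rps2 to 0.970 for Rps26 and Rps15a, and the 6 h points lie on both sides of 1, from 0.921 for Rpl10a to 1.10 for Rpl38.

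Rpl5 and Rpl11, which with 5S ribosomal RNA form the particle that can bind and inhibit the p53 ubiquitin ligase MDM2, had ratios of 0.900 (0.876 to 0.924) and 0.915 (0.888 to 0.943) at 1 h. Rpl5 was at 473, 425 and 470 FPKM and Rpl11 at 1990, 1822 and 1933 FPKM. Of 7 genes at the peptide tunnel exit, 6 were lower at 1 h, and Rpl26 was the exception until its second row was added. Over the whole family 77 of 80 members were lower, and 54.5% of all genes. Rpl17 had 993 and 928 FPKM in the control and at 1 h, Rpl19 1456 and 1289, Rpl23a 1785 and 1636, and Rpl31 649 and 586 FPKM.

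Of 10 genes whose human counterparts are mutated in Diamond-Blackfan anaemia, a failure of red cell production, 9 were lower at 1 h, again with Rpl26 as the exception. This is near the family's share of 77 of 80, beside 54.5% of all genes. The median of the 10 was -0.11, beside -0.13 for the 80 members. Rps19, the gene most often mutated in that disease, had 1112, 998 and 1098 FPKM. Rps7 had 814, 717 and 787 FPKM, with a ratio of 0.882 (0.853 to 0.911) at 1 h. Rps10 was at 1525, 1416 and 1481 and Rpl35a at 1476, 1383 and 1549 FPKM. Rps6, the target of S6 kinases, had 802, 736 and 802 FPKM.

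At 6 h the family stood near the control. Of the 80 members 42 were lower and 37 higher, beside 61.9% lower and 38.0% higher among all genes and 58.8% and 41.2% among abundant non-members. Rps27 was at 0 in both libraries. The median difference was -0.0060, beside -0.057 over all genes and -0.031 over abundant non-members. None was lower by 0.32 or by 2-fold (11.0% and 0.631% of all genes, 44 and 10 of the 834 abundant non-members). Rpl26, listed at 0 in the control, was the 1 member higher by 0.32 and by 2-fold (6.09% and 1.08% of all genes, 45 and 10 of the abundant non-members).

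With bounds apart and the direction taken from the FPKM, 16 members were lower and 6 higher at 6 h, beside 19.2% and 11.2% of all genes and 28.3% and 18.6% of abundant non-members. With the direction taken from the bounds, 17 were lower and 5 higher, the difference being Rps27a. These counts turned with the scaling, to 0 lower and 31 higher at a median ratio of 1 and to 2 and 17 with a common upper quartile. The shares given beside the deposited counts are no background for these rescaled ones. The interval of the ratio lay below 1 for 20 and above 1 for 10 (28.6% and 15.3% of all genes, 35.7% and 23.3% of abundant non-members). Highest above the control was Rpl38, known in mouse for its part in translating Hox mRNAs, at 1672 FPKM against 1516, a ratio of 1.10 (1.04 to 1.17). Rps24 had 1076 against 990 FPKM, a ratio of 1.09 (1.05 to 1.12). Rpl39 was at 2292 FPKM, 1.06 of the control, and Rps25, which some viral mRNAs need for initiation, was at 839 against 793 FPKM.

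Rps27a, made as a fusion with ubiquitin, had 1056 against 997 FPKM at 6 h, a ratio of 1.06 (1.03 to 1.09). Its deposited bounds at 6 h, 764 to 802, lie below those of the control, 987 to 1032, so the bounds and the value point in opposite directions. Among the 78 members above 0 in all libraries it was the 1 whose FPKM moved by more than 5% relative to the midpoint of its bounds between the control and 6 h.

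Lowest against the control at 6 h was Rpl10a, part of the mobile stalk beside the tRNA exit site, at 756 against 820 FPKM, a ratio of 0.921 (0.890 to 0.954). Rpl7a had a ratio of 0.939 (0.917 to 0.962), Rpl18 0.942 and Rpl6 0.943. Rps28 had a ratio of 0.945 (0.904 to 0.988). Stalk genes Rplp0, Rplp1 and Rplp2 had ratios of 0.950, 0.961 and 0.983, and their median difference of -0.057 was below those of the large subunit (-0.0087) and the small subunit (-0.0030).

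From 1 h to 6 h the family was higher again. This comparison shares the 1 h library with the one above, so it is no separate support for the low values at 1 h. Of 80 members 78 were higher at 6 h than at 1 h, where 45.2% of all genes and 58.5% of abundant non-members were higher and 54.7% and 41.1% lower. The 2 lower ones were Rps27 and Rpl22l1. The median was 0.11, beside -0.030 over all genes and 0.040 over abundant non-members.

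With bounds apart and the direction taken from the FPKM, 66 members were higher and 1, Rps27, lower in the 6 h library. Going by the bounds themselves, 65 were higher and 2, Rps27 and Rps27a, lower. Rescaling the libraries took the count of 66 to between 48 and 74. On the deposited scale only, the shares higher and lower by FPKM were 19.7% and 23.0% of all genes and 31.5% and 20.0% of abundant non-members. The interval of the ratio lay above 1 for 73 and below 1 for 0, beside 25.4% and 30.6% of all genes and 38.7% and 24.5% of abundant non-members. Higher by 0.32 or more were Rpl26 and Rps19bp1 (12.5% of all genes, 61 of the 834 abundant non-members). Of the members 0 were 2-fold higher (1.47% of all genes, 20 of the abundant non-members). Rps27 was lower by 0.32 and by 2-fold (17.2% and 1.70% of all genes, 53 and 16 of the abundant non-members). Rps25 differed most among the subunit genes above 0, at 839 against 706 FPKM, a ratio of 1.19 (1.14 to 1.24). Rps24 had a ratio of 1.17 (1.13 to 1.21), Rpl38 1.16 and Rpl35 1.15 (1.11 to 1.19). Rpl34 had 1.18 alone and 1.15 (1.08 to 1.21) with its second row.

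Least different between the washout libraries were Rpl37a (915 against 897 FPKM, ratio 1.02, interval 0.979 to 1.06), Rps28 and Rps26. Rps28 had a ratio of 1.02 (0.974 to 1.08) and Rps26 1.03 (0.991 to 1.07). Rps20, in the head of the small subunit, had 1610 against 1554 FPKM and Rpl6 861 against 829 FPKM. With second rows summed, the 6 h value exceeded the 1 h value for all 76 subunit and stalk genes, and the interval of the ratio lay above 1 for 72.

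**Figure D4:**
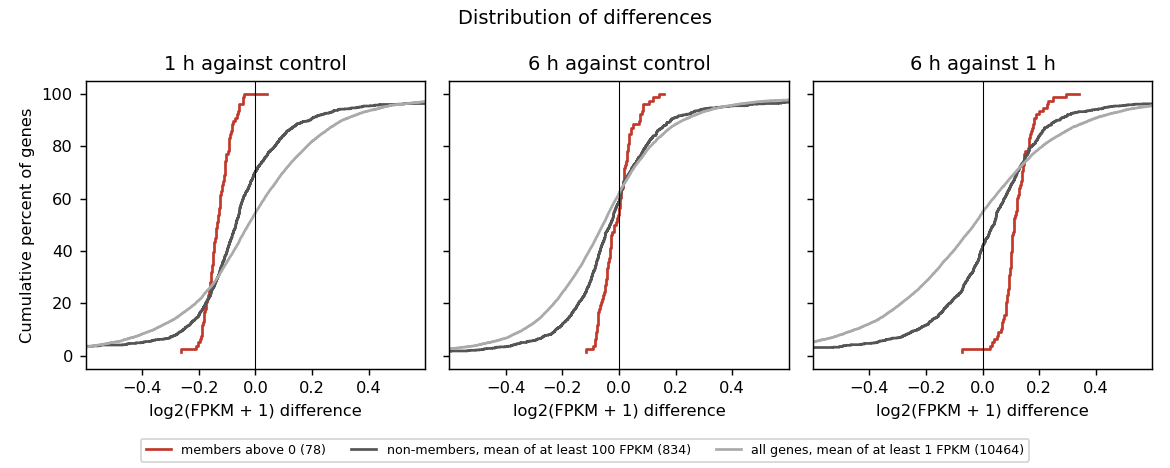
Cumulative percent of genes by log2(FPKM + 1) difference in each comparison, for 78 members above 0 in all libraries (red), 834 non-members whose mean reached 100 FPKM (dark grey) and all 10464 genes whose mean reached 1 FPKM (light grey). The red curves are steeper than the others in all 3 panels, with medians near -0.13 at 1 h, near 0 at 6 h and near 0.11 between the washout times.

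How large the shift was depended on how the libraries were scaled. The summed FPKM of all genes was 576610, 553792 and 565480. The summed FPKM of members at 1 h was 0.916 of the control, and that of non-members 0.970. With all sums made equal, the members' median at 1 h was -0.073, and with the sums of non-members made equal -0.088. Rescaled to a median ratio of 1 it was -0.10. It stayed below 0 in these scalings. At 6 h the median was -0.0060 as deposited and above 0 in the 4 rescalings, from 0.019 to 0.055. The rescalings moved the median of all genes by 0.025 to 0.064, less than 0.1 on the log2 scale.

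**Figure D5:**
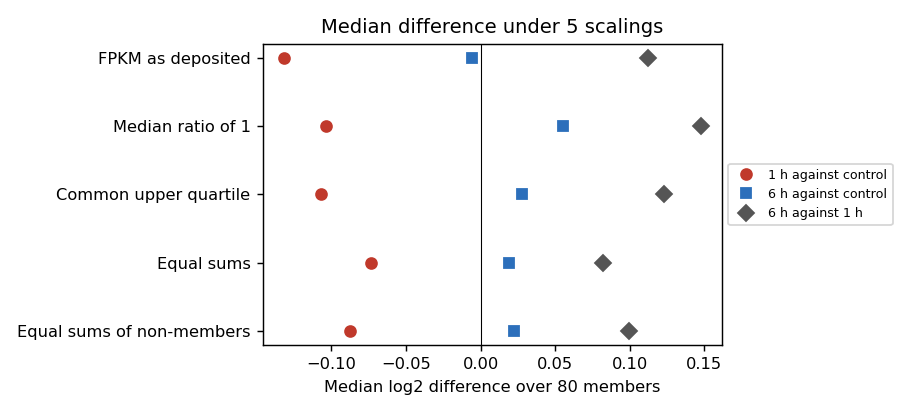
Median log2(FPKM + 1) difference over 80 members under the deposited scale and 4 rescalings (rows), for the 3 comparisons. The 1 h medians lie between -0.13 and -0.073, the 6 h medians between -0.0060 and 0.055, and those between the washout times between 0.082 and 0.15.

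Genes with and without a pyrimidine run of at least 7 near a RefSeq start had medians close to each other. This split does not sort genes by TOP tract, since a shorter tract or a start placed elsewhere would be missed. At 1 h the median difference was -0.14 over 33 subunit and stalk genes with a run in some window and -0.12 over 23 without. Between 1 h and 6 h the medians were 0.12 for both groups. Among the windows shown, Rps2 and Rpl41 had no run of that length (longest 6 and 3 bases) and Rps9 had a run of 9. The ratios of these genes at 1 h were 0.865, 0.869 and 0.873.

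Of the 8 paralogs, 4 were below a mean of 1 FPKM. An exact 0 may be a failed estimate, since Rpl30 was also listed at 0 in all libraries. Rpl3l, which replaces Rpl3 in mature striated muscle, was listed at 0 in all 3 libraries, as were Rpl10l, a germ-line counterpart of Rpl10, and Rps4y2. Rpl39l, another gene of male germ cells, had 0.0326 FPKM in the control and was listed at 0 in the other libraries, where 3 fragments on a 1 kb transcript would be worth 0.129, 0.145 and 0.144 FPKM. Rpl3 itself had 1031, 943 and 1010 FPKM.

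The 4 paralogs above the filter were Rps27l, Rpl36al, Rpl22l1 and Rpl7l1. Rps27l, a p53-responsive relative of Rps27, had 496, 443 and 503 FPKM. Rpl36al had 485, 472 and 503 FPKM, beside 1078, 1004 and 1071 FPKM for Rpl36a. Rpl22l1 had 204, 210 and 200 FPKM, so that at 1 h it was the 1 paralog above the control (ratio 1.03, 0.926 to 1.15). Rpl22, with which it shares RNA-binding functions, had 162, 152 and 163 FPKM.

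Rpl7l1, a nucleolar relative of Rpl7 that acts in large-subunit assembly, had 78.7, 68.9 and 84.7 FPKM. From 1 h to 6 h its ratio was 1.23 (1.16 to 1.30), beside 1.07 (1.04 to 1.11) for Rpl7, and these intervals do not overlap. Rps19bp1 had 71.0, 62.6 and 79.5 FPKM, with a ratio of 1.27 (1.12 to 1.44) from 1 h to 6 h. Both genes lie outside the mature ribosome, and whether this bears on their values was not tested. Rpl7l1 was the highest in this comparison of the 4 paralogs above the filter. The others, Rps27l, Rpl36al and Rpl22l1, had ratios of 1.14, 1.07 and 0.952.

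Ribosomal proteins whose symbols fall outside the rule, Fau, Gnb2l1 and Rpsa, were also lowest at 1 h. Fau, a fusion of a ubiquitin-like protein with a small-subunit protein, had 838, 762 and 816 FPKM. Gnb2l1, the scaffold RACK1 on the small-subunit head, had 1045, 935 and 1017 FPKM. Rpsa had 779, 749 and 761 FPKM. All 3 had bounds apart from the control at 1 h, with ratios of 0.909, 0.895 and 0.962. Lower with bounds apart were 63 of the 80 members, 20.1% of all genes and 36.3% of abundant non-members.

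Other mRNAs known to carry a TOP tract were also mostly lower at 1 h. Of 21 listed, 20 were lower, 14 of them with bounds apart, and the median was -0.12. Among all genes 54.5% were lower and 20.1% lower with bounds apart, and among abundant non-members 70.1% and 36.3%. Bounds were apart with a higher value for 1. Eef1a1, the elongation factor that delivers tRNA, had 4376, 3826 and 4159 FPKM. Eif4b, an initiation factor, had 204, 169 and 209 FPKM. Vim, an intermediate filament gene, was the exception at 3625, 4287 and 3557 FPKM.

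At 6 h 14 of the 21 were higher and 7 lower than the control, with a median of 0.03. Among all genes 38.0% were higher and 61.9% lower, and among abundant non-members 41.2% and 58.8%. Npm1, a nucleolar chaperone in ribosome assembly, had 991, 874 and 1086 FPKM over the 3 libraries, and Nap1l1, a histone chaperone, 533, 475 and 585 FPKM. Past 0.32 on the log2 scale were the snoRNA host Gas5, at 10.1 FPKM at 1 h against 13.3 in the control and 14.0 at 6 h, and the host Snhg1, at 94.5 FPKM at 6 h against 72.8 at 1 h.

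Genes listed as regulators of ribosomal protein gene expression, with Mdm2 among them, stood on both sides of the control at 1 h. Of 22 listed, the mean of 21 reached 1 FPKM, and 13 of these were higher and 8 lower at 1 h, beside 45.4% and 54.5% of all genes. Higher by 0.32 or more on the log2 scale were 4 (9.35% of all genes): Myc, which promotes ribosome production, the promoter-binding factor Sp1, the ETS partner Gabpb1 and Mdm2. The last encodes the target of the Rpl5 and Rpl11 particle described above and is not itself such a regulator. Mdm2 had 61.1, 85.8 and 68.7 FPKM, a ratio of 1.40 (1.33 to 1.48) at 1 h. Sp1 had 12.8, 17.4 and 13.2 FPKM, Gabpb1 10.6, 13.6 and 12.2 FPKM, and Myc 51.8, 103 and 57.7 FPKM. These 4 were picked for being higher at 1 h than in the control, so their high values there follow from the choice. The 3 picked for being lower, given next, were lowest in the same library.

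Lower by 0.32 or more at 1 h were 3 regulators (12% of all genes). Tsc1, an inhibitor of mTOR signalling, had 5.36, 3.72 and 4.32 FPKM. Maf1, a repressor of RNA polymerase III, had 33.6, 24.8 and 26.2 FPKM. It was also the 1 regulator lower by as much at 6 h (11.0% of all genes). Yy1, a zinc finger factor, had 33.1, 26.2 and 32.0 FPKM, with a ratio of 0.792 (0.719 to 0.872) at 1 h.

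Larp1, the TOP-binding protein, had 69.2, 66.8 and 70.4 FPKM, and Mtor 6.97, 8.05 and 6.38 FPKM. Larp4, which binds poly(A) tails, was the 1 regulator higher by as much at 6 h (6.09% of all genes), at 40.9 against 31.4 FPKM. From 1 h to 6 h Myc, Sp1 and the TOP-binding protein Tia1 (7.07 to 5.43 FPKM) were lower by 0.32 or more (17.2% of all genes). Larp4 and the MYC partner Max (23.9 to 30.9 FPKM) were higher by as much (12.5%). How these values bear on the ribosomal protein genes was not tested.

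The member loci were spread over 19 chromosomes, with 14 on chromosome 7. Symbols of short RNAs, mostly small nucleolar RNAs that guide modification of ribosomal RNA and are cut from introns, lay inside 22 of the 85 loci, 33 symbols in all. Rpl13a (chromosome 7, 52380933 to 52384115, mm9) held 5 such symbols. Beside short RNAs, 12 loci overlapped a further row, among them the 4 described above. The labels give no strand setting, so fragments from overlapping rows cannot be told apart.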

How the data were processed

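The authors deposited FPKM values with lower and upper bounds for 3 polyadenylated RNA libraries, and a table of the whole series with the same values. Per the submitters' processing notes, the tools were FastQC, TopHat and Cufflinks on the mouse build mm9. Their versions and settings and the gene annotation were not given in the sources used. Locus starts are printed with 1 added.

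Rows with the same symbol were summed. Differences are log2(FPKM + 1), which understates those of low genes, over the 10464 genes whose mean reached 1 FPKM. Ratios use FPKM without the pseudocount. Their intervals combine the relative half-widths of both libraries' bounds. Depth came from the step of low FPKM times length in genes with 1 transcript over 1500 nt (GENCODE vM21), and whole fragments were not recovered, so no count test was run. The code was tested on simulated data. Python 3.11.15, pandas 2.3.3 and numpy 2.4.6 were used.

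The members, lists and thresholds were chosen with earlier results of these data known. The interval of the ratio, the abundant non-members and the summing of rows on the same interval (at least 90% of both) were added after the values were seen. Named genes were the extremes of level and of each difference, stalk genes, paralogs, members listed at 0, the sublists, and regulators and TOP mRNAs past 0.32 on the log2 scale; a few others, chosen after their values were seen, illustrate a list. The values of 2 listed genes are not reported here.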

Additional observations from a re-analysis of the deposited data

Results flagged for a closer look

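On the deposited scale, the interval of the ratio to the shared control lay below 1 at 1 h and above 1 at 6 h for 9 members. These are 11.2% of the 80 members whose mean reached 1 FPKM, beside 4.12% of all genes and 8.27% of abundant non-members, and 0 members showed the opposite order, beside 5.51% and 5.76%. The difference between the times was not tested, since each is 1 library. The ratios at 6 h were 1.03 for Rpl23, 1.05 for Rpl35, 1.05 for Rpl35a, 1.06 for Rpl39, 1.08 for Rpl7l1, 1.03 for Rps14, 1.09 for Rps24, 1.06 for Rps25 and 1.06 for Rps27a. At 1 h the same genes, in that order, had ratios of 0.920, 0.918, 0.937, 0.962, 0.875, 0.908, 0.929, 0.891 and 0.937. The 6 h intervals of Rpl23 (1.00 to 1.06) and Rps14 (1.00 to 1.06) end close to 1. For Rps27a the deposited bounds at 6 h (764 to 802) lie below those of the control (987 to 1032), opposite to its ratio. Since the 6 h counts with bounds apart turned with the scaling, as given above, the count of 9 is limited to the deposited scale.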

How the results depend on the processing

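No paired analysis was possible because each group is 1 library, and for the same reason no library could be left out. The 1 h median stayed below 0 in all 15 alternatives (-0.13 to -0.073) and moved most, to -0.073, with equal sums. The median from 1 h to 6 h stayed above 0 (0.082 to 0.15). Members lower at 1 h with bounds apart fell from 63 to 42 with equal sums and to 49 with equal sums of non-members. They numbered 56 at a median ratio of 1 and with a common upper quartile. Members higher from 1 h to 6 h with bounds apart numbered 66 as deposited. They were 48 with equal sums and 58 with equal sums of non-members. At a median ratio of 1 they were 74, and with a common upper quartile 72. The 6 h median was 0.055 at a median ratio of 1. There, 6 h members with bounds apart, with the direction of the FPKM, were 0 lower and 31 higher, against 16 and 6 as deposited (Rps27a, among the 6, is lower by its bounds); with a common upper quartile they were 2 and 17, and with equal sums, of all genes or of non-members, 5 and 13. Members higher at 1 h, or lower from 1 h to 6 h, with bounds apart numbered 0 with a mean of at least 100 FPKM, without members listed at 0, or with rows on the same interval summed. That sum gave the members 18.7%, 17.8% and 18.9% of all FPKM in order of time. Reading the series table, taking 1 row per symbol or keeping rows with status OK moved no median. Shares of all genes and of abundant non-members are given for the deposited scale only, so the rescaled counts have no such background. Depth limits the low paralogs, and a 0 may be a failed estimate.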
